A study of Mus musculus with 5 samples.

Results

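The genes described are 10 chemokines that gut epithelium can make: Cxcl1, Cxcl2, Cxcl5, Cxcl9, Cxcl10, Cxcl16, Ccl20, Ccl25, Ccl28 and Cx3cl1. They were picked by symbol, as a named list, from the 32793 gene rows of the study, and all 10 symbols had a row. Of these, 9 had enough counts to be among the 13501 genes tested, and Cxcl9 did not. The samples were mouse colon spheroids, which are ball-shaped cultures of gut epithelial cells, of a mixed background labelled as mostly C57Bl6 with some FVB. In 2 libraries (titled RA, called NDD here) the cells expressed the dimerization-deficient alleles Notch1DD and Notch2DD, and 3 libraries were wild type (WT). The study's title places this comparison within the role of Notch receptor dimerization in intestinal homeostasis. No age, treatment or time in culture is given in the labels, and nothing there says whether the libraries of a group came from separate mice, so p-values measure the spread between these libraries, which may be technical.

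Chemokines are small secreted proteins that guide leukocytes by binding G protein-coupled receptors on them. Those made by intestinal epithelium draw different cells: CXCL1, CXCL2 and CXCL5 bind CXCR2 and attract neutrophils, CXCL9 and CXCL10 bind CXCR3 on T cells, CCL20 binds CCR6, CCL25 binds CCR9 and CCL28 binds CCR10 on mucosal lymphocytes. CXCL16 and CX3CL1 are made as transmembrane proteins that can be shed by the proteases ADAM10 and ADAM17, which also cut Notch receptors. Transcription of many inflammatory chemokines is known to respond to NF-kappaB, and that of Cxcl9 and Cxcl10 to interferon.

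The promoters that matched the NF-kappaB consensus are printed because their genes had one order across the WT libraries, as described further on. Counting error leaves part of that order unresolved for Cxcl2, Cxcl10 and Ccl20. RefSeq promoter windows of the GRCm38.p6 build, from 250 bases before to 50 bases after a transcription start, were used for 8 of the 10 genes (9 windows), all but Cxcl5 and Cxcl16. The NF-kappaB consensus, searched on both strands, matched 4 of these 9 windows, those of Cxcl1, Cxcl2, Cxcl10 and Ccl20, and 4.51% of all 32851 windows. Capitals mark matches to the NF-kappaB consensus, to the interferon-stimulated response element GAAANNGAAA and to the RBPJ motif TGGGAA, each on either strand, and sequences run 5′ to 3′ along the gene.
Cxcl1, chr5:90890995-90891294, plus strand: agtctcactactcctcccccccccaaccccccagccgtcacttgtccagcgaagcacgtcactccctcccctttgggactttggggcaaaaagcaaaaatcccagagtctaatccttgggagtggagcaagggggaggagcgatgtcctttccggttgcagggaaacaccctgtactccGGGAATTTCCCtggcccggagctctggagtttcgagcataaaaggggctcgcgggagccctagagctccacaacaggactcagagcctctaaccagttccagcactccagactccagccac
Cxcl2, chr5:90903649-90903948, plus strand: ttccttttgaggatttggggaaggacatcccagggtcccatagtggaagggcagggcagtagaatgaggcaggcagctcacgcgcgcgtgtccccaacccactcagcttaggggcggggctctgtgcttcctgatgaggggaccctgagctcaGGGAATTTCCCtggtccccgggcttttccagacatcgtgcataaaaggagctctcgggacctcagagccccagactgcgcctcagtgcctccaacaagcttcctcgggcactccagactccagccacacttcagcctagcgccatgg
Cxcl10, chr5:92348840-92349139, minus strand: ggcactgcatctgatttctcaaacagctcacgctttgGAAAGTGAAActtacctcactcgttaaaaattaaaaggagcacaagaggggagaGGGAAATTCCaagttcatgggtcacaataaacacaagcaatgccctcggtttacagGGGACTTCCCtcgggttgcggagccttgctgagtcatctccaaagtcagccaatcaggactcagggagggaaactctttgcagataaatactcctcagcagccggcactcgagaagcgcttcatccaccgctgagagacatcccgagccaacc
Ccl20, chr1:83116516-83116815, plus strand: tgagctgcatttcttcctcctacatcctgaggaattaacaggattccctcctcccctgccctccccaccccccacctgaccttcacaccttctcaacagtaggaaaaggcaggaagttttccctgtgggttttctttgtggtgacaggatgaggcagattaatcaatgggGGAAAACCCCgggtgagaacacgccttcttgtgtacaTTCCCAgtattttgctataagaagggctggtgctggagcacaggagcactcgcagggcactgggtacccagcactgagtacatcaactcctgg

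In the windows of Cxcl1 and Cxcl2 the same 11 letters matched on both strands, in matches that overlap by all but 1 base, from -71 and from -97 relative to the start site. The window of Cxcl10 held NF-kappaB matches from -159 and -103 and the only interferon-stimulated response element among the 9 windows, from -213, a motif found in 3.44% of all windows. That of Ccl20 held an NF-kappaB match from -80 and an RBPJ match from -43, and the window of Cx3cl1 held an RBPJ match too. RBPJ is the DNA-binding partner of the Notch intracellular domain, and its 6 letters were in 25.6% of all windows. The AP-1 motif TGANTCA was in 3 of the 9 windows, those of Cxcl9, Cxcl10 and Ccl28 (7.81% of all). The NF-kappaB and RBPJ motifs can share letters, but no matches of different motifs overlapped in the printed windows. A match is a run of letters and not a site shown to be bound.

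By GENCODE M21 on GRCm38, the same assembly as the mm10 named in the submitters' processing notes, 5 of the 10 genes lie on chromosome 5. Cxcl5 (chr5:90759360-90761624), Cxcl1 (chr5:90891241-90893115) and Cxcl2 (chr5:90903871-90905938) sit on the plus strand within 146579 bp. Cxcl9 (chr5:92321347-92328079) and Cxcl10 (chr5:92346638-92348889) sit on the minus strand within 27543 bp. The others are Ccl20 (chr1:83116766-83119167), Ccl25 (chr8:4325210-4360020), Cx3cl1 (chr8:94772009-94782427), Cxcl16 (chr11:70453983-70459984, minus strand) and Ccl28 (chr13:119623819-119654359). All 10 are protein-coding genes. Cxcl2 shared 7.59% of the 31-base sequences of its transcripts with another gene, mainly Cxcl3, so its counts are the least certain, while the other 9 genes shared at most 0.871%.

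Libraries held 19192389 to 23064000 counts. NDD replicate 2 stood apart from the other libraries, with Spearman correlations of log2 CPM of 0.939 to 0.966, against 0.973 to 0.987 among the other 4. CPM are counts scaled to a common library size with TMM factors. Notch1 was at 55.1 to 56.0 CPM in NDD and 56.3 to 69.1 CPM in WT, and Notch2 at 26.3 to 38.0 CPM and 36.3 to 55.5 CPM. Neither was called (edgeR adjusted p 0.584 and 0.505), and since the alleles are not deletions, these levels check no label. The cultures carried epithelial and colonic transcripts, with 10 epithelial markers summing to 10495 to 11826 CPM and 5 colon markers to 1821 to 3441 CPM. Marker lists of other sources were low. The 10 immune markers summed to 2.40 and 4.31 CPM in NDD and 4.87 to 9.05 CPM in WT, with the pan-leukocyte gene Ptprc at 2 counts or fewer in every library. These sums came mostly from Cd68 (37 to 87 counts), Itgam (13 to 39) and Csf1r (1 to 70). Cd68 and Csf1r were lower in both NDD libraries than in any WT library, and Itgam overlapped. The 5 small intestine markers summed to at most 4.09 CPM. The 10 fibroblast markers, of which Lum and Thy1 had 0 counts in every library, summed to 9.71 and 27.1 CPM in NDD and to 4.29 to 7.82 CPM in WT, mostly from Pdgfrb. The 6 endothelial markers, with Kdr and Emcn at 0, summed to at most 7.54 CPM. The immune and fibroblast sums did not overlap between groups, and their part in the chemokine values was not tested.

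Transcript levels, compared between genes as TPM (abundance per transcript length, scaled to the same total in every library), spanned from near 0 to 119 TPM. In WT the order of mean TPM was Cxcl16 (90.3 ± 24.7, SD, n = 3), Ccl28 (52.6 ± 10.3), Cx3cl1 (45.5 ± 5.48), Cxcl5 (27.2 ± 28.0), Ccl20 (15.1 ± 7.08), Cxcl1 (9.88, from 2.58 to 16.5), Ccl25 (5.30 ± 0.994), Cxcl10 (2.71 ± 1.28), Cxcl2 (0.860 ± 0.774) and Cxcl9 (0.0200 ± 0.0173). The WT ranges of neighbours in this order did not overlap between Cxcl16 and Ccl28, between Ccl25 and Cxcl10 and between Cxcl10 and Cxcl2, and overlapped for the other 6 pairs. Cxcl16, Ccl28 and Cx3cl1 together made up 67.7% to 87.8% of the summed TPM of the 10 genes in a library. That sum was 248 ± 40.1 TPM in NDD (SD, n = 2) and 249 ± 42.7 TPM in WT, a gap far smaller than the spread within either group. In NDD the order began with Ccl28 (75.7 ± 1.25), Cxcl16 (53.0 ± 19.4), Cx3cl1 (46.4 ± 3.64) and Ccl20 (38.1 ± 3.73), and the NDD range of Cxcl16 (39.2 to 66.7 TPM) overlapped those of Cx3cl1 (43.8 to 48.9 TPM) and Ccl20 (35.5 to 40.8 TPM).

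**Figure D1:**
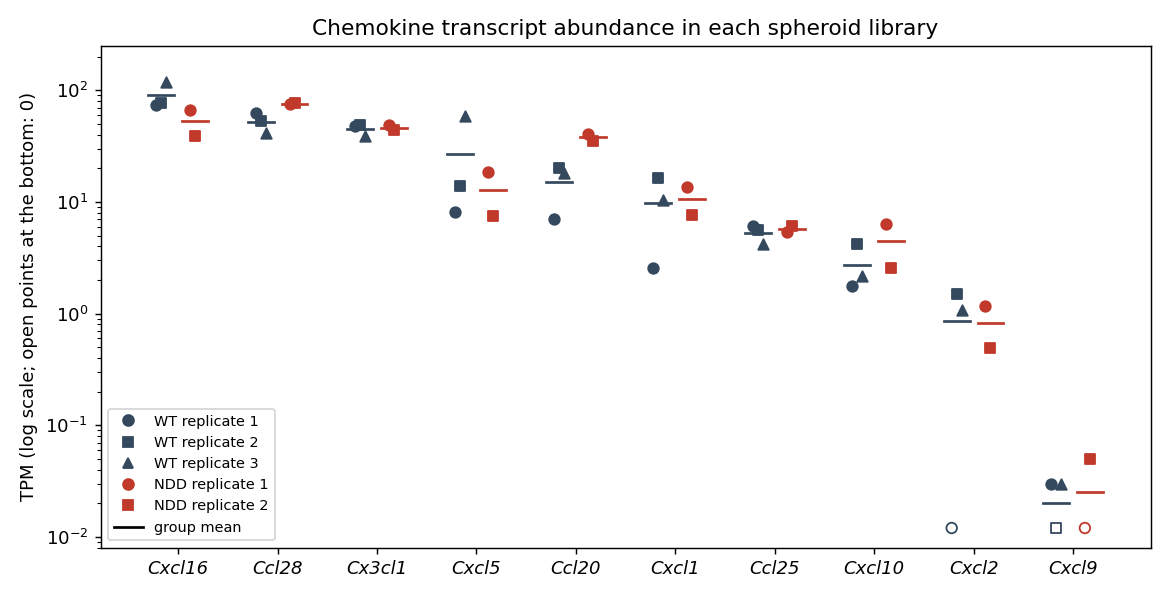
Abundance of the 10 chemokine transcripts in TPM (vertical axis, log scale) in each library, ordered by the WT mean. Points are libraries, short lines are group means and open points at the bottom are values of 0; Ccl20 and Ccl28 lie higher in both NDD libraries than in any WT library, and Cxcl16 lies lower.

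None of the 9 tested chemokines was called between NDD and WT by the quasi-likelihood test of edgeR (adjusted p under 0.05), against 0.0889% of all tested genes (12 of 13501, with 0.0667% higher and 0.0222% lower in NDD). The adjusted p-values of the 9 ran from 0.417 to 0.949. DESeq2 and the other tools tried also called 0 of them (DESeq2 called 2.54% of the genes it gave an adjusted p). At an unadjusted p under 0.05 there were 3, namely Ccl20, Ccl28 and Cxcl16, against 11.2% of all tested genes. The CPM of the groups did not overlap for the same 3 genes, 33.3% of the 9 against 32.0% of all tested genes (15.8% with NDD above WT and 16.2% with NDD below), so this share was close to that of genes at large. The median log2 fold change was 0.11 over the 9 chemokines and 0.00 over all tested genes, and the median size of the log2 fold change, sign ignored, was 0.55 against 0.25. Few counts and a wide spread between libraries also enlarge this size (SE up to 1.14, for Cxcl2). It was not compared with that of genes of like count or spread.

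**Figure D2:**
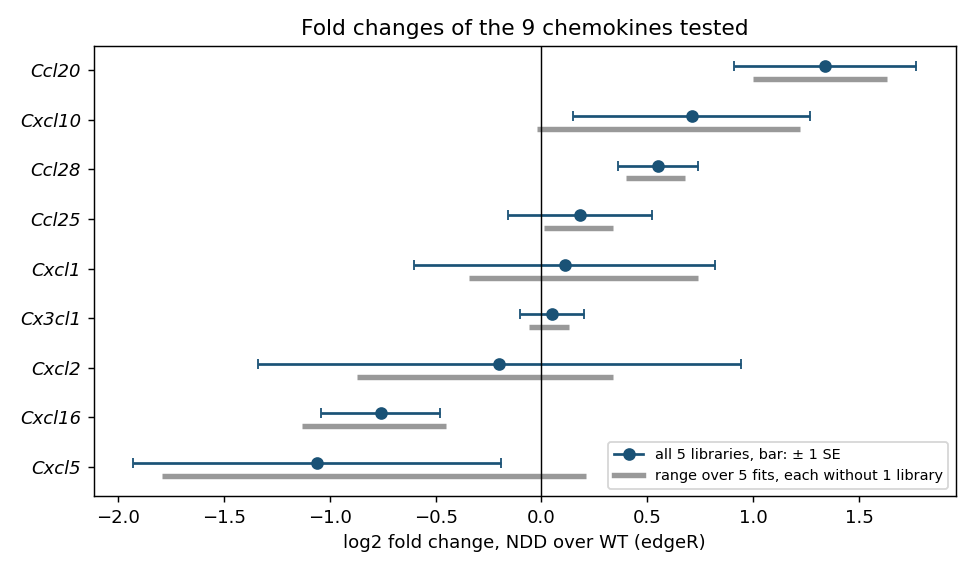
Log2 fold changes of NDD over WT from edgeR for the 9 chemokines tested (points, bars of ± 1 SE) and the range over 5 fits that each left out 1 library (grey bars). Ccl20, Ccl28 and Ccl25 (lowest value 0.01) stay above 0 and Cxcl16 below 0 in every such fit. For Ccl20, Ccl28 and Cxcl16 this follows from groups that do not overlap in CPM. The grey bars of Cxcl1, Cxcl2, Cxcl5, Cxcl10 and Cx3cl1 cross 0.

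Of the lymphocyte attractants of the CC family, Ccl20, whose product recruits CCR6-bearing lymphocytes and dendritic cells to follicle-associated epithelium, had the largest difference upward. It was at 15.1 and 14.1 CPM in NDD (346 and 301 counts) and at 2.64, 7.78 and 6.86 CPM in WT (51, 177 and 160 counts). Both NDD libraries lay above all WT libraries, and WT replicate 1 was the lowest. Its log2 fold change was 1.34 ± 0.43 (SE) at an edgeR adjusted p of 0.417, it was lowest without WT replicate 1 and it was 1.63 without WT replicate 2. The 2 NDD libraries differed by a factor of 1.07 and the WT libraries by a factor of 2.95. In these bulk samples, more or fewer cells of a type and more or less RNA per cell cannot be told apart.

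Ccl28, which attracts CCR10-bearing IgA plasma cells and is made by colon epithelium, was at 161 and 177 CPM in NDD and at 136, 120 and 90.2 CPM in WT. The groups did not overlap, with WT replicate 3 the lowest. Its log2 fold change was 0.55 ± 0.19 (SE) at an edgeR adjusted p of 0.437. Ccl25, known mainly from small intestine, where it guides CCR9-bearing lymphocytes, was low throughout, at 2.84 and 3.28 CPM in NDD and 3.26, 2.81 and 2.02 CPM in WT (47 to 70 counts). Its groups overlapped, with a log2 fold change of 0.18 ± 0.34 (SE) at an edgeR adjusted p of 0.808. That value was 0.01 without WT replicate 3 and 0.34 without WT replicate 1.

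Of the colonocyte markers on the lists, Krt20 and Aqp8 lay in the same direction as Ccl28 without overlap between groups, and they were picked after their values were seen. Krt20, a keratin of surface cells, was at 60.0 and 131 CPM in NDD and at 35.0, 35.3 and 4.93 CPM in WT. The water channel gene Aqp8 was at 61.6 and 178 CPM in NDD and at 45.8, 38.2 and 6.26 CPM in WT. WT replicate 3 was the lowest for both, as it was for Ccl28. Car1, the colonic carbonic anhydrase, overlapped between groups, at 2887 and 1898 CPM in NDD and at 1914, 1936 and 1377 CPM in WT. Of the 5 colon markers, 4 were higher and 1 lower in NDD (Hoxd13, log2 fold change -1.49), and the groups did not overlap for 2. Of the 10 epithelial markers, 8 were higher and 2 lower (Krt18 at -0.14 and Krt19 at -0.09), and the groups did not overlap for 5, where 32.0% of all tested genes did not overlap. Neither Krt20 nor Aqp8 was called (edgeR adjusted p 0.440 and 0.441), and their part in the Ccl28 and Ccl20 values was not tested.

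The neutrophil attractants Cxcl1, Cxcl2 and Cxcl5 had overlapping groups. Cxcl5 was at 16.2 and 7.07 CPM in NDD and at 7.30, 12.9 and 52.5 CPM in WT. WT replicate 3 alone was high, with 1223 counts (exact 95% Poisson interval 1155 to 1294) against 141 in WT replicate 1 (119 to 166), intervals that cover counting error only. The log2 fold change of Cxcl5 was -1.06 ± 0.87 (SE) at an edgeR adjusted p of 0.585, and it was 0.21 without WT replicate 3. WT replicate 3 also had the highest summed CPM of the immune marker list, 9.05, whose part in the Cxcl5 value was not tested.

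Cxcl1 was at 6.21 and 3.79 CPM in NDD and at 1.19, 7.87 and 4.80 CPM in WT, with 23 counts in WT replicate 1 and 179 in WT replicate 2. The NDD values lay inside the WT range. Its log2 fold change of 0.11 ± 0.71 (SE) at an edgeR adjusted p of 0.949 became -0.34 without WT replicate 1 and -0.30 without NDD replicate 1. Cxcl2 had 14 and 6 counts in NDD and 0, 19 and 16 counts in WT. Its log2 fold change was -0.20 ± 1.14 (SE) at an edgeR adjusted p of 0.941, with either sign depending on the fit. The 3 genes summed to 33.1 and 15.6 TPM in NDD and to 10.7, 32.0 and 70.9 TPM in WT, so they were 5.09% to 24.0% of the summed chemokine TPM in a library.

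For comparison, the spread of the members within WT was set against all tested genes. The highest WT library exceeded the lowest by a factor of 7.19 for Cxcl5 and 6.61 for Cxcl1, where the median over all tested genes was 1.26. The SD of log2(CPM + 0.5) over the WT libraries was larger for Cxcl5 than for 99.6% of tested genes, for Cxcl1 than for 99.2% and for Ccl20 than for 97.1%. It was larger than for 61.5% for Cx3cl1 and for 77.5% for Ccl28. Low counts also widen this SD, and these ranks are a description with no test.

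The interferon-inducible attractants of T cells were low or absent. Cxcl9 had 0 and 2 counts in NDD and 1, 0 and 1 in WT, which is within the 3 counts that a count of 0 allows, so no fold change is given. Cxcl10 was at 6.34 and 2.55 TPM in NDD (79 and 32 counts) and at 1.78, 4.17 and 2.18 TPM in WT (19, 54 and 27 counts). NDD replicate 1 was the highest and NDD replicate 2 lay inside the WT range. Its log2 fold change was 0.71 ± 0.56 (SE) at an edgeR adjusted p of 0.574, and it was -0.02 without NDD replicate 1. Of the 18 interferon receptors and transcription factors on a hand-made list, all tested, 0 were called by edgeR. An unadjusted edgeR p under 0.05 was found for 2 of them (11.1%, against 11.2% of all tested genes). DESeq2, which called 2.54% of all its genes, called 1 of the 18, Irf7. Their median log2 fold change was 0.20, with 15 higher and 3 lower in NDD, from 0.11 without NDD replicate 2 to 0.30 without NDD replicate 1. The groups did not overlap for 5 of the 18, all with NDD above WT, a share of 27.8% against 32.0% of all tested genes (15.8% with NDD above WT). Irf7, an interferon-induced transcription factor, was at 18.2 and 31.9 CPM in NDD and at 11.6, 11.6 and 6.69 CPM in WT (log2 fold change 1.33, SE 0.34, edgeR adjusted p 0.323, DESeq2 adjusted p 0.0176). Irf9 was at 12.9 and 36.1 CPM in NDD and at 12.0, 12.5 and 9.74 CPM in WT (log2 fold change 1.10, SE 0.41, edgeR adjusted p 0.437). NDD replicate 2 was the highest for both, and both were called in the fit without NDD replicate 1 (edgeR adjusted p 0.0358 and 0.0162). That fit leaves 1 NDD library, the one that stood apart, and it called 1207 genes in all against 12 with every library. The 3 with the highest mean CPM were the interferon gamma receptor chains Ifngr2 (log2 fold change 0.20) and Ifngr1 (0.07) and the kinase Jak1 (-0.05).

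Of the transmembrane chemokines, Cxcl16 had groups that did not overlap and Cx3cl1 had groups that did, and neither was called. Cxcl16, whose product binds CXCR6 on T cells and also acts as a scavenger receptor, was at 73.0 and 46.3 CPM in NDD and at 83.3, 87.9 and 131 CPM in WT. Both NDD libraries lay below all WT libraries, NDD replicate 2 was the lowest and WT replicate 3 the highest. Its log2 fold change was -0.76 ± 0.28 (SE) at an edgeR adjusted p of 0.437, with -0.45 without NDD replicate 2 and -1.13 without NDD replicate 1. Cx3cl1, which encodes fractalkine, the ligand of CX3CR1 on mononuclear phagocytes, was at 87.5 and 84.3 CPM in NDD and at 87.8, 91.5 and 70.2 CPM in WT. The groups overlapped and its log2 fold change was 0.05 ± 0.15 (SE) at an edgeR adjusted p of 0.891, the smallest of the 9 in size and, without WT replicate 3, -0.06.

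Of the 11 genes for proteases, inhibitors and cofactors that act on chemokines, 7 were tested and 0 were called by edgeR (median log2 fold change -0.20, 6 of 7 lower). DESeq2 called 1 of the 7, Mmp7, against 2.54% of all its genes. Adam10, the main sheddase of both transmembrane chemokines, was at 162 and 145 CPM in NDD and at 164, 164 and 161 CPM in WT, for a log2 fold change of -0.09 ± 0.11 (SE) at an edgeR adjusted p of 0.717. The iRhom genes Rhbdf1 and Rhbdf2, whose products carry ADAM17 to the cell surface, had log2 fold changes of -0.20 and -0.16, with overlapping groups. Adam17 was at 46.9 and 39.7 CPM in NDD and at 52.2, 49.2 and 57.8 CPM in WT (log2 fold change -0.29, SE 0.15, edgeR adjusted p 0.475), with no overlap. Timp3, a metalloprotease inhibitor, had 159 and 796 counts in NDD and 997, 1468 and 2216 counts in WT (log2 fold change -1.67, SE 0.68, edgeR adjusted p 0.446), with no overlap either. The groups did not overlap for 3 of the 7, all with NDD below WT, against 32.0% of all tested genes (16.2% with NDD below WT). The median was -0.10 without WT replicate 3 and -0.36 without NDD replicate 2.

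Most of the remaining chemokine ligands had too few counts to be tested. Of 28 others listed, 13 had 0 counts in every library and 5 were tested, of which 0 were called. Ccl6 had the highest mean CPM of them, at 42.5 and 25.4 CPM in NDD and at 24.8, 17.3 and 23.6 CPM in WT (log2 fold change 0.63, SE 0.27, edgeR adjusted p 0.456), with no overlap between groups. Ccl9 was at 2.29 to 3.52 CPM, with a log2 fold change of -0.05. Ccl2, a monocyte attractant, had 5 and 2 counts in NDD and 6, 23 and 129 counts in WT. As with Cxcl5, WT replicate 3 was the highest, and the log2 fold change of -3.82 ± 1.42 (SE) at an edgeR adjusted p of 0.437 came with few counts.

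Receptors for these ligands were at or near 0, with 9 of 22 chemokine receptor genes at 0 counts in every library, among them Cxcr3, Ccr2, Ccr7 and Cx3cr1. Only Ccr1 and Ccr10 had enough counts to be tested, and neither was called. Ccr10, the receptor of CCL28, had 14 and 25 counts in NDD and 6, 8 and 8 counts in WT (log2 fold change 1.39, SE 0.51, edgeR adjusted p 0.437). The NDD libraries lay above the WT libraries, at no more than 1.17 CPM. Ccr1 was at 0.172 to 1.19 CPM with a log2 fold change of -0.01.

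**Figure D3:**
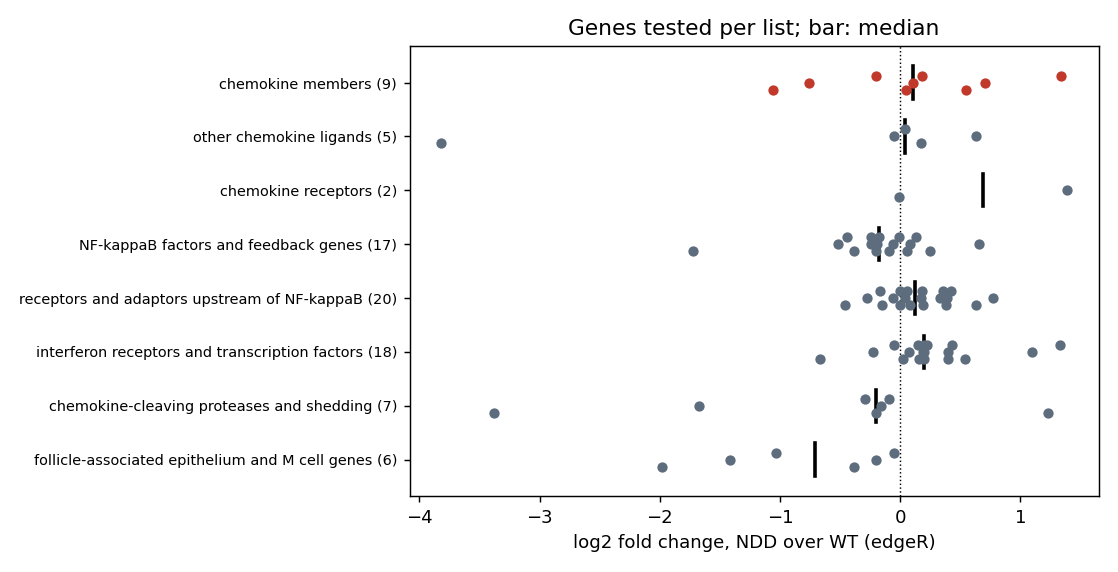
Log2 fold changes of NDD over WT from edgeR for the tested genes of the chemokine list and of 7 related lists (number tested in parentheses); points are genes and bars are medians. Medians lie between -0.71 (follicle-associated epithelium and M cell genes) and 0.69 (chemokine receptors, 2 genes), and no gene shown had an adjusted p under 0.05.

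Most genes that act upstream of inflammatory chemokines had enough counts to be tested, and edgeR called 0 of them with all libraries in the fit. Of 21 receptors and adaptors that lead to NF-kappaB, 20 were tested, 14 were higher and 6 lower in NDD and 0 were called by edgeR. At an unadjusted edgeR p under 0.05 there were 3 (15.0%, against 11.2% of all tested genes). The median log2 fold change was 0.12, and 0.19 without NDD replicate 1 or 0.07 without WT replicate 3. The remaining gene, Tlr9, had 0 counts in every library. The fit without NDD replicate 1, with its 1207 calls, called Il17re (log2 fold change 0.81, edgeR adjusted p 0.0420) and Tnfrsf1b (-0.85, edgeR adjusted p 0.0374). Those with the highest mean CPM were Ltbr (log2 fold change 0.08), the TNF receptor gene Tnfrsf1a (0.04) and Il17rc (0.33), a chain of the receptor for interleukin 17. Of 18 NF-kappaB factors and feedback genes, 17 were tested, 5 were higher and 12 lower and 0 were called by edgeR (median -0.18). Leaving out WT replicate 2 gave a median of -0.05, leaving out NDD replicate 2 gave -0.08 and leaving out WT replicate 3 gave -0.09. DESeq2 called 1 of the 17, Icam1 (adjusted p 0.00316), against 2.54% of all its genes. At an unadjusted edgeR p under 0.05 there were 2 of the 17 (11.8%, against 11.2% of all tested genes). Nfkbia, the inhibitor that NF-kappaB induces, was at 193 and 123 CPM in NDD and at 100, 228 and 175 CPM in WT (log2 fold change -0.09, SE 0.37, edgeR adjusted p 0.918). Rela had a log2 fold change of -0.20, with overlapping groups. Bcl3 was at 89.1 and 84.0 CPM in NDD and at 121, 112 and 120 CPM in WT (log2 fold change -0.44, SE 0.11, edgeR adjusted p 0.337), with no overlap.

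Of the 9 tested chemokines, 4 had the same order over the WT libraries, which was noticed after the values were seen. Cxcl1, Cxcl2, Cxcl10 and Ccl20, whose promoters are printed above, were each highest in WT replicate 2, next in replicate 3 and lowest in replicate 1. Exact Poisson intervals of the counts separated every step for Cxcl1 only. They overlapped between WT replicates 2 and 3 for Ccl20 (152 to 205 and 136 to 187) and Cxcl2 (11.4 to 29.7 and 9.15 to 26.0). For Cxcl10 they overlapped between WT replicates 3 and 1 (17.8 to 39.3 and 11.4 to 29.7). The counts thus do not resolve these steps of the order. That order was found in 14.4% of all tested genes, a share that tests nothing, since the order was taken from these genes. On the NF-kappaB list 6 of 17 tested genes had it (Nfkbia, Nfkbiz, Tnfaip3, Tnf, Tnip1 and Zc3h12a) and 11 did not, among them Birc3, Relb, Nfkb2, Sod2 and Bcl3. The ratio of WT replicate 2 to WT replicate 1 was 6.61 for Cxcl1, 2.95 for Ccl20, 2.41 for Cxcl10, 2.37 for Nfkbiz, 2.28 for Nfkbia, 1.90 for Tnfaip3, 1.90 for Tnf, 1.32 for Zc3h12a and 1.06 for Tnip1. A ratio of at least 1.5 in that order was found in 4 of the 17 list genes and in 3.11% of all tested genes, which tests nothing either, since the ratio was also set after the values were seen. Whether NF-kappaB has a part in this order was not tested. In NDD, replicate 1 lay above replicate 2 for those 4 chemokines, but also for Cxcl5, Cxcl16 and Cx3cl1 (7 of 9), against 50.0% of all tested genes. It did so for 3 of the 6 genes of the NF-kappaB list (Nfkbia, Tnfaip3 and Tnf) and lay below for Nfkbiz, Tnip1 and Zc3h12a. Cxcl5 and Icam1 did not follow this order and were highest in WT replicate 3. Ccl25, Ccl28 and Cx3cl1, whose windows held no NF-kappaB match, did not have this order either. Being lowest in replicate 1 within WT was not limited to genes of this order, since Cxcl5, Cxcl16 and Icam1 were too. No promoter window of Cxcl5 or Cxcl16 was searched, and a link between motif and order was not tested.

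**Figure D4:**
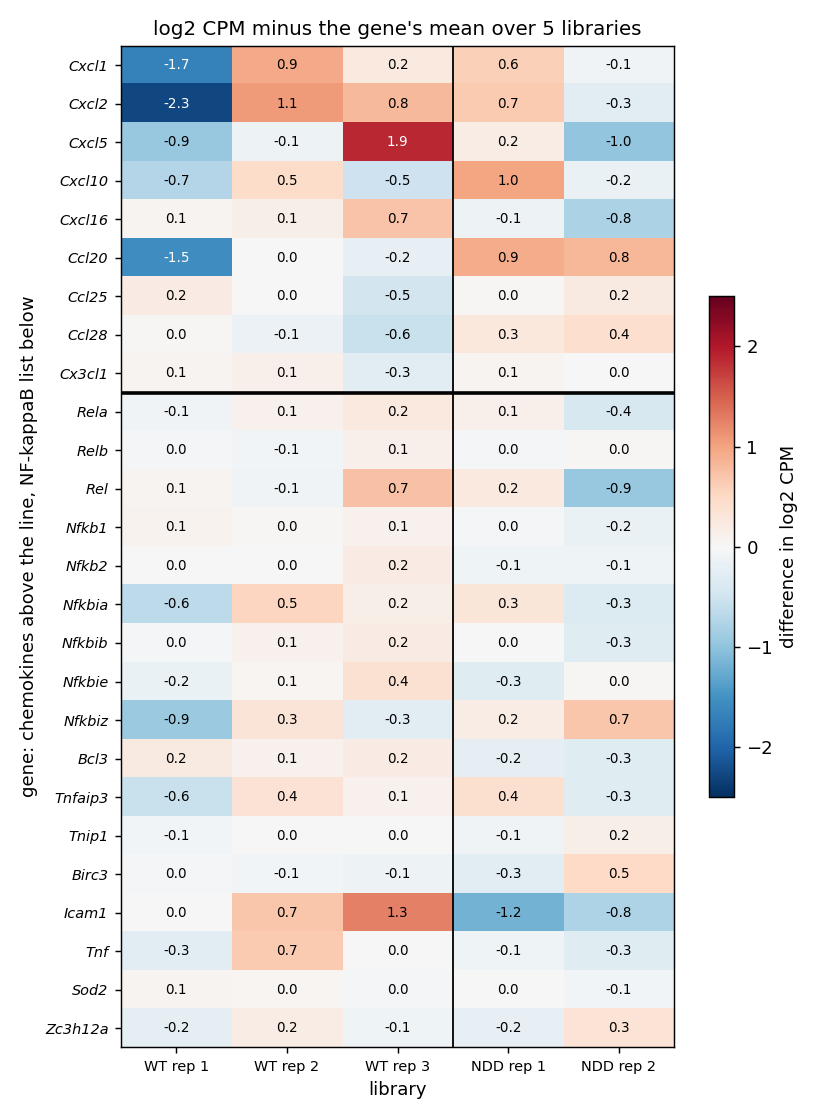
Log2 CPM minus the gene's mean over the 5 libraries (colour and printed value) for the 9 tested chemokines (above the line) and the 17 tested genes of the NF-kappaB list, with libraries as columns. WT replicate 1 is low for Cxcl1, Cxcl2, Cxcl5, Cxcl10, Ccl20, Nfkbia, Nfkbiz and Tnfaip3, and WT replicate 3 is high for Cxcl5 and Icam1. For Cxcl5, NDD replicate 2 is as low as WT replicate 1.

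Genes of follicle-associated epithelium, where Ccl20 is known to be strong, were looked at beside it. Of the 9 genes on that list, 6 were tested, 0 were higher and 6 lower in NDD and 0 were called by edgeR (3 at an unadjusted p under 0.05, against 11.2% of all tested genes). DESeq2 called 2, Marcksl1 and Tnfrsf11b (adjusted p 0.00124 and 0.00406), against 2.54% of its genes. The median log2 fold change of -0.71 became -0.36 when NDD replicate 1 was left out, -1.13 when NDD replicate 2 was left out and -0.37 with at least 10 counts in every library. Gp2, an uptake receptor of mature M cells, had 0 counts in every library. Those with the highest mean CPM were Anxa5 (log2 fold change -0.20), Tnfrsf11a (-0.38), the receptor through which M cells are induced, and Marcksl1. Marcksl1 was at 20.6 and 28.6 CPM in NDD and at 50.4, 55.6 and 90.5 CPM in WT (log2 fold change -1.42, SE 0.31, edgeR adjusted p 0.267), with no overlap.

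The genes most like the 3 most abundant chemokines were sought by the Euclidean distance between centred log2 CPM values over the 5 libraries, among 10584 genes. Fold changes come from the same libraries, so the nearest genes had to have fold changes close to that of their chemokine. Nearest to Cxcl16 were Mtap (distance 0.0902), Uck2 (0.141) and Flna (0.141), with log2 fold changes of -0.74, -0.75 and -0.74. Nearest to Ccl28 were Gucy2c (0.0739), S100a1 (0.105) and Glul (0.110), with log2 fold changes of 0.51, 0.51 and 0.54. Gucy2c encodes the guanylyl cyclase receptor of intestinal epithelium. Nearest to Cx3cl1 were Epn1 (0.0739), Mrgbp (0.0934) and Dmac1 (0.0983). Among the pairs of one of these 3 with another compared chemokine, Ccl28 and Cx3cl1 had the smallest distance, 0.614, which is not a close one, since Cx3cl1 ranked 1998 among the genes nearest to Ccl28 and Ccl28 ranked 6335 among those nearest to Cx3cl1.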

How the data were processed

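The deposited tables hold estimated counts per gene, which the authors left unnormalized and which are whole numbers. A second deposited table holds TPM, in which the authors divided by transcript length and brought every library to one total. Bowtie2, RSEM and mm10 are named, without roles, in the submitters' processing notes, and library preparation kept strand, per the labels' protocols; whether counting used it is not given. How reads matching several genes were assigned is not given in the sources used here. Groups and replicate numbers came from the sample titles and genotype labels.

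The counts of all 5 libraries were tested with edgeR 4.0.16 in R 4.3.3 (quasi-likelihood, robust, TMM factors, filterByExpr, prior count 0.125, no covariate). Benjamini-Hochberg adjustment ran over 13501 genes, with calls at an adjusted p under 0.05. Each SE was derived from the log2 fold change and its F statistic. The code was tested on simulated counts. DESeq2 1.42.0, limma 3.58.1, other factors, filters and pseudocounts, a replicate block and fits without each library were alternatives.

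The 10 genes and all lists were chosen with earlier results of these data known. Named beside the 10 genes were Notch1 and Notch2, the 3 tested genes of each list with the highest mean CPM and the 3 genes nearest to each of the 3 most abundant chemokines. Krt20, Aqp8 and other genes outside this rule were chosen after their values were seen. With 2 libraries against 3, an exact permutation test with its p doubled for both directions cannot go below p = 0.2, so none was used. A count of 0 allows up to 3 counts, 0.130 to 0.156 CPM here.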

Additional observations from a re-analysis of the deposited data

How the results depend on the processing

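The count of called chemokines was 0 under all 15 alternatives, while 0 to 3 of them had an unadjusted p under 0.05 (0 without NDD replicate 2). Ccl20, Ccl28 and Cxcl16 kept their direction in all 15. Their groups did not overlap in CPM, so the 5 fits without 1 library were bound to keep it and do not test it. Ccl25 kept its sign too, but at 0.01 without WT replicate 3 and 0.01 with the replicate block. Cxcl2 turned to 0.73 with limma-voom, to 0.05 on log2(TPM + 1) with and without a filter and to 0.59 on log2(TPM + 0.1). With the replicate number as a block it was 0.52, Cxcl5 was 0.14 and Cx3cl1 was -0.06. Across the 5 fits without 1 library, log2 fold changes ranged from -0.34 to 0.74 for Cxcl1, -0.87 to 0.34 for Cxcl2, -1.79 to 0.21 for Cxcl5, -0.02 to 1.22 for Cxcl10 and -0.06 to 0.13 for Cx3cl1. Lone libraries left in a group were assumed to vary like the others. Adjusted p-values over all alternatives were 0.102 to 0.864 for Ccl20, 0.143 to 0.885 for Ccl28 and 0.0827 to 0.885 for Cxcl16. The cause of these shifts was not tested.

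Over all genes, 12 were called. There were 58 with no filter, 4 with at least 10 counts in every library, 365 with DESeq2, 24 with limma-voom, 33 with the replicate block, and 0 (without WT replicate 1, with 1211 at an unadjusted p under 0.05) to 1207 (without NDD replicate 1) in fits without 1 library. Of the 126 related genes, 74 were tested and 0 were called by edgeR (14 at an unadjusted p under 0.05, 18.9% against 11.2% of all tested genes). DESeq2 called 5 of the related genes, Icam1, Irf7, Marcksl1, Mmp7 and Tnfrsf11b, against 2.54% of all its genes. In the fits without 1 library, the median of the other chemokine ligands (5 genes) ranged from 0.00 to 0.32. That of the receptors (2 genes) ranged from 0.46 upward. Same-numbered libraries deviated from their group means with correlations of 0.0129 and 0.301, and crossed ones with -0.301 and -0.0129. With 2 NDD libraries the deviations are mirror images, so the crossed values only turn the sign, and these correlations cannot show pairing. The labels do not say that the numbers pair the libraries. Depth limits Cxcl2 and Cxcl9, at 19 counts or fewer in every library.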

Other observations

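The balance of Cxcl16 and Ccl28, the 2 chemokine transcripts with the highest mean TPM over all libraries, differed between groups. The measure was chosen after the values were seen and is given with no test. It had to differ, since Cxcl16 was lower and Ccl28 higher in both NDD libraries than in any WT library. It thus restates those 2 differences. In NDD replicate 2, Cx3cl1 (43.8 TPM) lay above Cxcl16 (39.2 TPM). The ratio of Cxcl16 TPM to Ccl28 TPM was 0.892 and 0.512 in NDD and 1.20, 1.44 and 2.84 in WT. Ccl28 was thus the more abundant transcript in both NDD libraries and Cxcl16 in all 3 WT libraries, with WT replicate 3 and NDD replicate 2 at the extremes. Neither gene was called on its own.

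WT replicate 3 also carried the most transcripts of Ccl7, a monocyte attractant beside Ccl2, with 29 counts against 0 and 5 in WT replicates 1 and 2 and 0 and 3 in NDD. Icam1, the leukocyte adhesion molecule, was at 3.89 and 5.24 CPM in NDD and 9.06, 14.5 and 21.6 CPM in WT (log2 fold change -1.72, SE 0.41, edgeR adjusted p 0.293). Mmp7, a protease of injured epithelium, had 7 and 19 counts in NDD and 67, 49 and 304 counts in WT (log2 fold change -3.38, edgeR adjusted p 0.394). Both were chosen after their values were seen, and the NDD libraries lay below the WT libraries for each.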
